A study of Xenopus tropicalis with 18 samples.

Results

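The hypochord-enriched genes described here were chosen by their measured counts at stages 61 and 65 in hypochord and coccyx tissue of wild-type Xenopus tropicalis. For each library, CPM is a gene's count scaled to a common library total. The last 37 gene rows and the 100 most abundant rows were set aside, and a gene then had to average 8 CPM or more over the 8 libraries of these stages. Its lowest CPM in 4 hypochord libraries also had to lie above its highest CPM in 4 coccyx libraries. Of 19921 listed genes, 6859 met the abundance limit and 42 of those, 0.612%, met both. The rule allows up to 150 genes, so all 42 are members, and they are named by their rank in the difference of mean log2(CPM + 1), hypochord minus coccyx. The opposite pattern, with all 4 coccyx libraries above all 4 hypochord libraries, was held by 358 of the 6859 genes, or 5.22%. Since this contrast chose the members, its values are a description and carry no test.

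The urostyle is the bony rod at the end of the frog's vertebral column. Metamorphosis builds it from the coccyx above, made of vertebral elements, and the hypochord below, a rod of cartilage under the notochord that ossifies while the tail is lost under the action of thyroid hormone. Cartilage that turns to bone passes through enlarged cartilage cells whose matrix is resorbed and replaced by bone.

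RNA was measured in 9 hypochord and 9 coccyx libraries of wild-type animals (stages 56, 58, 61 and 65), the tissue being frozen and cut out by laser capture and the cDNA amplified. Members can be followed in 12 of these libraries, 6 per tissue. Of these, stage 56 had replicate 1 and stage 58 replicate 2 of each tissue, and stages 61 and 65 had replicates 1 and 2 per tissue. The 6 libraries of replicate 3 list identifiers that could not be matched to the others and are not used for the members. The labels do not say whether replicates were separate animals or pools, so a p-value here speaks of the scatter among these libraries, which may be only technical. In such bulk tissue, fewer cells of a type and less RNA per cell cannot be told apart.

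None of the identifiers could be paired with a gene name or protein in the tables at hand, so no member's function is given, the tissue labels could not be checked against marker genes, and 4 members are given by identifier. Totals ran from 1918822 to 7271829 counts per library, so that 3 counts correspond to 0.413 to 1.56 CPM. The 2 early hypochord libraries had a count for 7376 genes at stage 56 and 7508 at stage 58, against 11003 to 11644 in the later hypochord libraries and 13246 to 13919 in the coccyx libraries. The share of counts in the rows set aside by the rule was 66.7% in stage 61 replicate 2 hypochord and 62.9% in stage 61 replicate 2 coccyx, against 31.1% to 53.4% in the other 10. The CPM of the other genes in a library falls as this share grows.

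The members were moderately abundant and most were enriched by a modest factor. Their difference ran from 0.50 to 2.95 on the log2(CPM + 1) scale with a median of 0.96, and the ratio of mean CPM in hypochord to mean CPM in coccyx ran from 1.42 to 9.40 with a median of 2.02. By level, 8 members averaged under 20 CPM over the 8 libraries, 22 averaged 20 to 100 CPM, 10 averaged 100 to 500 CPM and 2 averaged above that. By size, 4 members differed by 2 log2 units or more, 14 by 1 to 2, 14 by 0.75 to 1 and 10 by less. Over all 6859 genes the median difference was -0.21, toward coccyx.

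**Figure D1:**
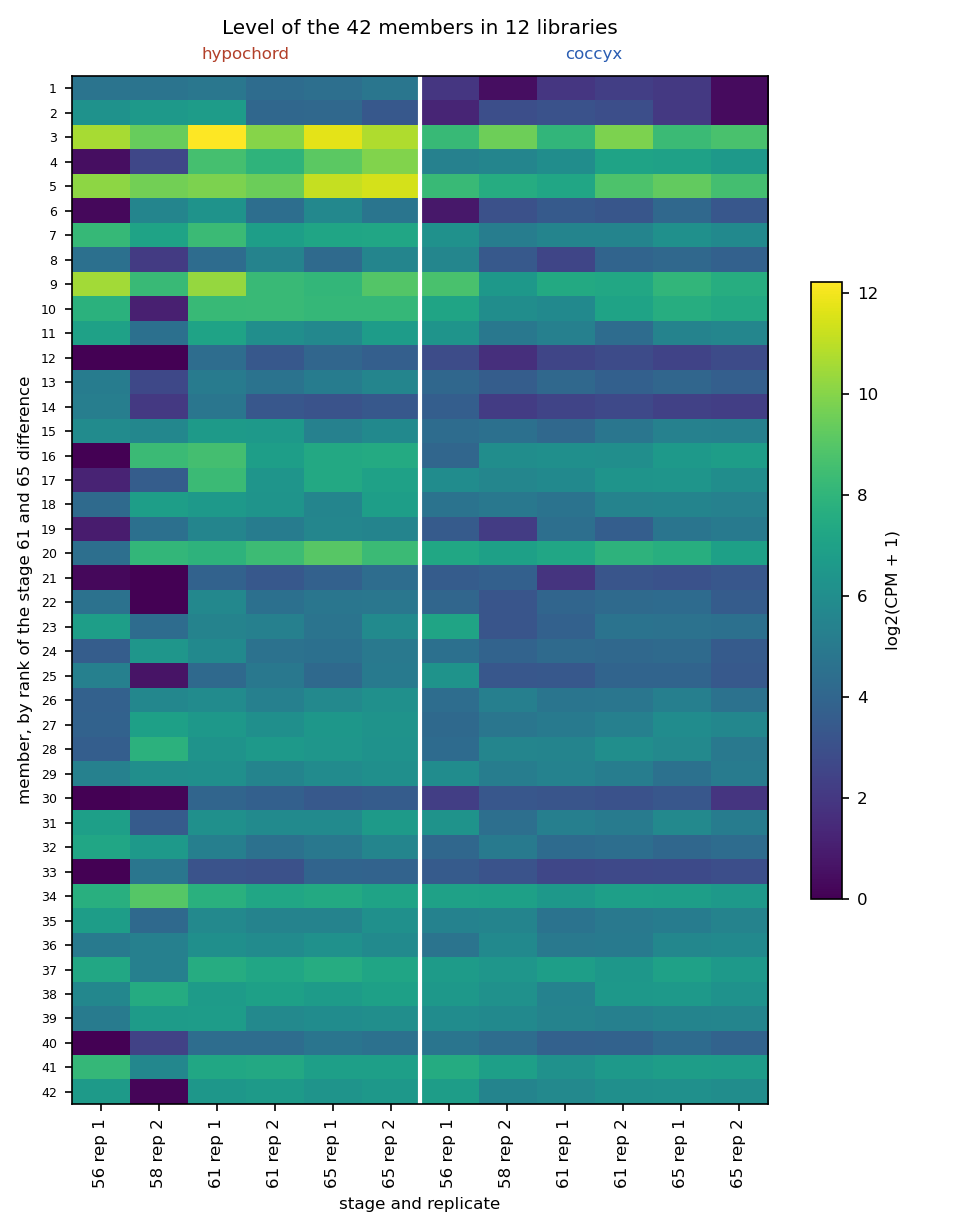
Level of each of the 42 members (rows, by rank) in the 6 hypochord libraries (left) and the 6 coccyx libraries (right), as log2(CPM + 1), with dark cells for low levels. Stage 56 and stage 58 hypochord, the first and second columns, hold the darkest cells, while the 4 hypochord columns of stages 61 and 65 have no member under 10 counts.

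The gap between the tissues was narrow for most members. The ratio of the lowest hypochord CPM to the highest coccyx CPM was 2 or more in 1 member, 1.1 to 2 in 21 members and below 1.1 in 20. The smallest ratios inside the limit were 1.003 and 1.009, at ranks 35 and 20, and the nearest genes outside it had 0.994 and 0.980. At the abundance limit, the members ranked 33 and 14 averaged 8.27 and 8.93 CPM, and the nearest genes left out averaged 7.99 and 6.03 CPM.

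How many genes met the rule rose from 42 when any single library was left out. A rise was nearly fixed in advance, since leaving out a library takes away a condition, but its size differed between libraries. Without stage 61 replicate 2 hypochord 374 genes met it, and without stage 61 replicate 1 or stage 65 replicate 2 hypochord 54 did. Without stage 65 replicate 1 hypochord the number was 89. Leaving out a coccyx library gave 94 without stage 61 replicate 2, 91 without stage 65 replicate 1, 76 without stage 65 replicate 2 and 49 without stage 61 replicate 1. Between 41 and 42 of the members still met the rule each time. This was nearly fixed in advance, since leaving out a library cannot undo a member's non-overlap and only the limit of 8 CPM could be missed. Stage 61 replicate 2 was the lowest of the 4 hypochord libraries for 21 of 42 members and for 61.6% of the 6859 genes. When CPM was scaled by TMM factors, which offset an unusual share of abundant genes, 170 of 6762 genes met the rule, against 455 with coccyx above hypochord. Under this scaling 21 of the 42 members kept all 4 hypochord libraries above all 4 coccyx libraries, among them ranks 1, 3, 4, 5, 6 and 7 but not rank 2. The median difference of all 42 members was then 1.12 and the lowest 0.68, against a median of -0.05 over the genes at 8 CPM or more.

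The member with the largest difference was ENSXETG00000006304, a gene of low and even level in hypochord. Its hypochord level was 28.1 and 18.9 CPM at stage 61 and 21.2 and 26.6 CPM at stage 65, against 2.78 and 3.88 CPM in stage 61 coccyx and 3.13 and 0.299 CPM in stage 65 coccyx. Its lowest hypochord value was 4.88 times its highest coccyx value, the widest gap among the 42 members, and the difference was 2.95 log2 units. Outside the rule's tissue contrast it had 25.1 CPM at stage 56 and 24.9 CPM at stage 58 in hypochord, against 2.86 and 0.348 CPM in coccyx. All 6 hypochord libraries thus lay above all 6 coccyx libraries. The coccyx values of 0.299 and 0.348 CPM were only 1 and 2 counts.

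The second, ENSXETG00000026572, was far higher in 3 hypochord libraries than in the other 3. Its hypochord level was 109 and 15.7 CPM at stage 61 and 16.8 and 9.38 CPM at stage 65, against 7.34 and 6.65 CPM in stage 61 coccyx and 3.13 and 0.299 CPM in stage 65 coccyx. At stages 56 and 58 it had 75.4 and 92.7 CPM in hypochord, against 1.43 and 6.79 CPM in coccyx. Its high libraries were those of stages 56 and 58 and replicate 1 of stage 61. The lowest hypochord library, stage 65 replicate 2, still lay above every coccyx library. The coccyx value of 0.299 CPM was a single count.

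The members ranked 3 and 5 were the most abundant. In hypochord rank 3 had 4809.8 and 1039.5 CPM at stage 61 and 3356.7 and 1744.3 CPM at stage 65, against 268 and 912 CPM in stage 61 coccyx and 325 and 422 CPM in stage 65 coccyx. Within replicate 2 of stage 61 its hypochord level was thus close to its coccyx level, and the same held at stage 58, with 663 CPM in hypochord and 729 CPM in coccyx. In hypochord rank 5 had 892 and 712 CPM at stage 61 and 2264.0 and 2774.6 CPM at stage 65, against 150 and 452 CPM in stage 61 coccyx and 626 and 383 CPM in stage 65 coccyx. At stages 56 and 58 rank 5 had 1139.6 and 800 CPM in hypochord, against 316 and 190 CPM in coccyx, so its groups did not overlap at any stage. With these 2 genes, the members' summed level was 5013 to 11198 CPM in the 4 hypochord libraries of stages 61 and 65, against 1932 to 3268 CPM in the 4 coccyx libraries. Without them it was 3262 to 5496 CPM in hypochord, against 1514 to 2262 CPM in coccyx.

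In hypochord rank 4 had 389 and 249 CPM at stage 61 and 573 and 970 CPM at stage 65, against 63.5 and 138 CPM in stage 61 coccyx and 126 and 92.6 CPM in stage 65 coccyx. At the earlier stages its order was the reverse, with 0.369 and 5.09 CPM in hypochord, against 40.6 and 46.9 CPM in coccyx. Rank 7 kept one order throughout, with hypochord values of 290 and 138 CPM at stages 56 and 58, 327 and 114 CPM at stage 61 and 143 and 151 CPM at stage 65. Its coccyx values were 70.9 and 35.4 CPM at stages 56 and 58, 44.6 and 44.2 CPM at stage 61 and 68.6 and 54.4 CPM at stage 65. Rank 6 was high in 5 hypochord libraries, 20.7 to 76.3 CPM, and had a single count, 0.185 CPM, at stage 56. In coccyx rank 6 had 0.716 CPM at stage 56 and 7.14 to 16.4 CPM in the other 5 libraries.

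**Figure D2:**
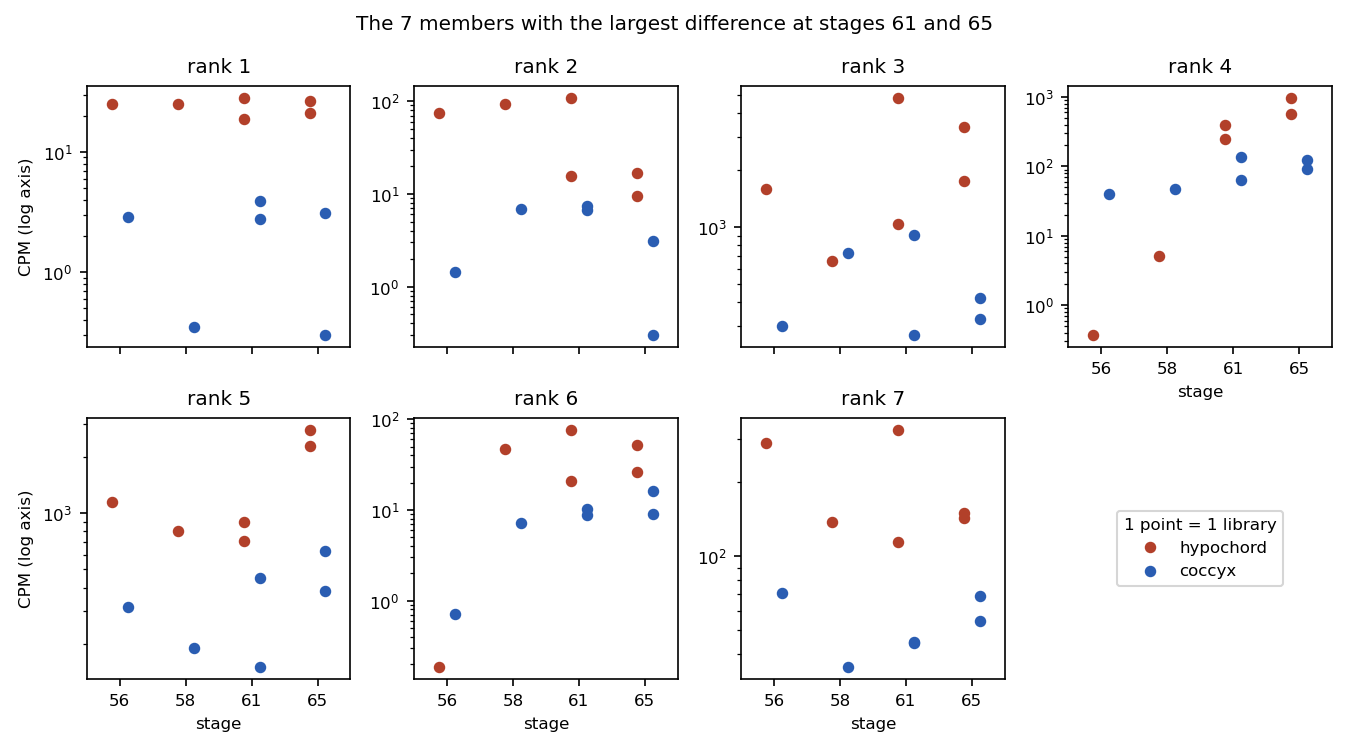
CPM on a log axis of the 7 members with the largest difference at stages 61 and 65, by stage, with hypochord libraries in red left of coccyx libraries in blue and 1 point per library. Ranks 1, 2, 5 and 7 have hypochord above coccyx at every stage, and in hypochord at stage 56 rank 4 is at 0.369 CPM and rank 6 at 0.185 CPM.

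Replicates of one stage lay closer together in the members than in the 6859 genes, in libraries that took part in the choice, so these gaps are a description. The median absolute gap between replicates was 0.49 log2(CPM + 1) units in stage 61 hypochord and 0.36 in stage 65 hypochord, against 0.92 and 0.66 for the 6859 genes. In coccyx the members' gap was 0.36 at stage 61 and 0.35 at stage 65, against 0.81 and 0.42 for the 6859 genes. In stage 61 hypochord 33 of 42 members were higher in replicate 1 than in replicate 2, and the widest gap was 2.71 log2 units. The matching share of the 6859 genes was not counted.

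Whether the members already differed between the tissues at stages 56 and 58 was asked with libraries outside the rule's tissue contrast. They entered the rule only through the mean level by which the 100 most abundant rows were set aside. The answer was divided: some members were higher in hypochord at both stages, about as many were lower at both, and most changed sides between the stages. By CPM, 8 members were higher in hypochord than in coccyx at both stages, 9 were lower at both, 11 were higher at stage 56 alone and 14 at stage 58 alone. Of all 6859 genes, 13.1% were higher in hypochord at both stages and 48.9% were lower at both. A further 19.7% were higher at stage 56 alone and 18.1% at stage 58 alone. Scaled by TMM factors, 12 members were higher at both stages and 8 lower at both, against 20.1% and 39.9% of the 6859 genes.

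Non-overlap is the stricter measure. Both early hypochord libraries lay above both early coccyx libraries in 7 of 42 members (16.7%), against 6.93% of the 6859 genes. Both lay below in 6 members (14.3%), against 35.9% of the 6859 genes. The 7 were ranks 1, 2, 5, 7, 15, 32 and 34. All of them but rank 32 had all 6 hypochord libraries above all 6 coccyx libraries, and these 6 were the only such genes among the 6859, a count that the rule itself limits to its members. Under TMM scaling ranks 2 and 34 lost their non-overlap at stages 61 and 65. Rank 32 was highest early, with 149 and 96.4 CPM at stages 56 and 58 in hypochord, against 15.7 and 30.7 CPM in coccyx. Later it had 22.3 to 46.4 CPM in hypochord, against 16.1 to 20.7 CPM in coccyx.

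edgeR's quasi-likelihood test over 12 libraries, with stages 56 and 58 joined as 1 group of 2 per tissue, called 5 of 42 members higher in early hypochord than in early coccyx (11.9%), against 75 of 11729 genes tested (0.639%). It called 4 members lower (9.52%), against 2707 genes (23.1%). All 42 members were among the genes tested, and no test compared the members' shares with those of all genes. Each gene's spread was estimated over all 12 libraries, so it came partly from the later libraries that chose the members. Replicates in those libraries lay closer together in the members than in the genes at 8 CPM or more. The members' p-values may thus be too low beside those of other genes. The early hypochord libraries also entered the spread, and there the members lay farther apart, with a median gap of 2.41 against 1.51. Which way the members' p-values were shifted was not tested, so these shares are a description. The genes tested also include genes under the 8 CPM that every member reached. The 5 higher members were ranks 1, 2, 5, 7 and 32. ENSXETG00000006304 had a log2 fold change of 4.45 ± 1.31 (SE, edgeR adjusted p = 0.0328, range over 19 alternatives 0.000139 to 0.155). ENSXETG00000026572 had 4.70 ± 1.28 (SE, edgeR adjusted p = 0.0261, range 0.000195 to 0.119). Ranks 5, 7 and 32 had log2 fold changes of 2.35, 2.40 and 2.75, with edgeR adjusted p = 0.0446, 0.0207 and 0.0185. Over the 19 alternatives their adjusted p ran from 0.00511 to 0.179 for rank 5, 0.000185 to 0.0974 for rank 7 and 2.45e-05 to 0.0803 for rank 32. The call held in 8 of the 19 for rank 5, 10 for rank 1, 16 for rank 2, and 17 each for ranks 7 and 32. Some of the 19 fits left 1 library in an early group and did not measure scatter there. Ranges and tallies over the 19 are thus a description.

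Of the 4 lower members, ranks 12, 21 and 30 had 0 or 1 counts in each early hypochord library, while rank 4 had 2 counts at stage 56 and 37 at stage 58, against 170 and 269 counts in coccyx. ENSXETG00000000679, rank 12, had 0 counts in both early hypochord libraries, against 26 and 12 counts (6.20 and 2.09 CPM) in early coccyx. Set against a floor of 3 counts over both hypochord libraries, 0.236 CPM, it was at least 16.2-fold lower in early hypochord by total counts. Its hypochord level was 20.04 and 9.28 CPM at stage 61 and 15.3 and 11.99 CPM at stage 65, against 4.96 and 5.96 CPM in stage 61 coccyx and 4.58 and 5.98 CPM in stage 65 coccyx.

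ENSXETG00000026007, rank 21, had 1 count at stage 56 and 0 at stage 58 in hypochord, against 45 and 71 counts in coccyx. By pooled counts the ratio of early coccyx to early hypochord was 148, with a 95% exact counting interval of 26.1 to 5901. At stages 61 and 65 it had 9.46 to 19.8 CPM in hypochord, against 2.58 to 8.96 CPM in coccyx. Rank 30 had 0 and 1 counts in early hypochord, against 16 and 52 counts in early coccyx, a ratio of coccyx to hypochord of 86.9 (15.1 to 3480.0). Such intervals and floors cover counting error only, since amplified reads are not independent molecules. The edgeR log2 fold changes were -7.03 for rank 12, -6.41 for rank 21, -5.62 for rank 30 and -3.43 for rank 4 (adjusted p = 0.0144, 0.0144, 0.0198 and 0.0362). For genes with 0 or 1 counts they depend on the method. The call held in 18 of the 19 alternatives for ranks 12 and 21, 17 for rank 30 and 10 for rank 4.

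How many members were called moved with the fit. DESeq2 called 8 members higher in early hypochord and 5 lower, against 376 genes higher and 3561 lower of 11729. With limma voom 5 members were called higher and 6 lower, against 147 genes higher and 3436 lower of 11729. With the pair of hypochord and coccyx libraries of one stage and replicate as a block, edgeR called 0 of 42 members and 182 of 11729 genes, 17 higher in hypochord and 165 lower, and the 9 members had adjusted p = 0.0508 to 0.0693. Their log2 fold changes under the block kept their direction, for example 4.84 for rank 1, 5.08 for rank 2, 2.85 for rank 32 and -4.11 for rank 4. With stages 56 and 58 as separate groups, each early group had 1 library, so the spread came only from the libraries that chose the members. Calls from this fit, 1 of the 19 alternatives above, do not measure scatter among the early libraries and are not read here. The 9 members kept their direction, for example with log2 fold changes of 4.985 for rank 1 and -4.537 for rank 4. Leaving out an early library left 1 library in its group, so scatter in that group was not measured. Calls from those fits are not read here either, and the 9 members kept their direction. Rank 4 had a log2 fold change of -2.353 without stage 56 hypochord and -6.485 without stage 58 hypochord. Rank 1 had 6.354 without stage 56 coccyx and 3.633 without stage 58 coccyx. The part of the early hypochord libraries' small number of detected genes in the numbers of members called was not tested.

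**Figure D3:**
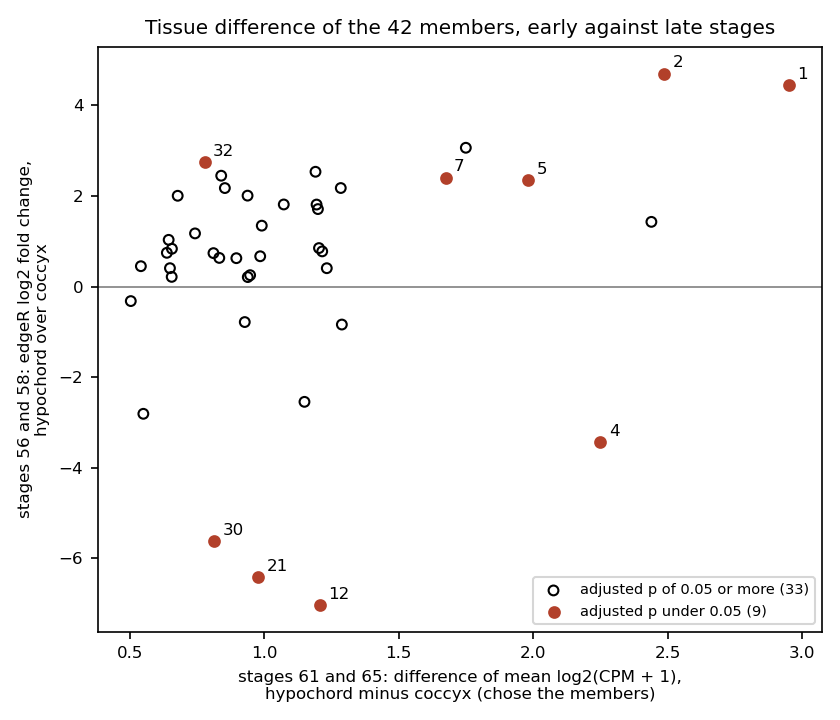
Log2 fold change of hypochord over coccyx at stages 56 and 58 (edgeR, vertical) against the difference at stages 61 and 65 that chose the members (horizontal), with 1 point per member and the 9 members past the threshold filled and labelled by rank. Ranks 1, 2, 5, 7 and 32 lie above 0, and ranks 4, 12, 21 and 30 lie between -3.43 and -7.03.

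The fold change weighs the means of the early libraries, so it hides how unlike stage 56 and stage 58 hypochord were. By edgeR 33 of 42 members had a fold change above 0, against 35.3% of all genes tested, which include genes under 8 CPM. The share over the genes at 8 CPM or more was not counted. The members' median was 0.81, against -0.92 over all genes tested and -0.19 over the genes at 8 CPM or more. By mean log2(CPM + 1) the difference was above 0 in 22 members with a median of 0.02, against 24.8% and -1.11 for the 6859 genes. Between stage 56 and stage 58 hypochord the members' median absolute gap was 2.41 log2(CPM + 1) units, against 1.51 for the 6859 genes. Between stage 56 and stage 58 coccyx it was 0.92 for the members and 0.93 for the 6859 genes. Since these stages have 1 library per tissue each, stage and library cannot be told apart.

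In 13 members the early hypochord libraries differed by over 3 log2 units, 6 being higher at stage 56 and 7 at stage 58. The share of all genes with such a gap was not counted, so the number is a description. Rank 16 had 0 counts at stage 56 and 2336 counts (321 CPM) at stage 58 in hypochord, against 15.5 and 63.7 CPM in coccyx. Rank 42, the member of smallest difference, had 102 CPM at stage 56 and a single count, 0.138 CPM, at stage 58 in hypochord, against 110 and 45.1 CPM in coccyx. Rank 10 had 223 and 1.1 CPM in early hypochord, against 141 and 63.7 CPM in early coccyx. In the 4 hypochord libraries of stages 61 and 65 rank 10 stayed between 284 and 308 CPM. The same gene could thus be among the well measured in one early hypochord library and nearly missing in the other.

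By detection, 28 members had 10 counts or more in both early hypochord libraries (66.7%), 4 in stage 56 alone, 7 in stage 58 alone and 3 in neither (7.14%). Of the 6859 genes, 57.4% were detected in both, 14.9% in stage 56 alone, 13.5% in stage 58 alone and 14.3% in neither. The 3 were ranks 12, 21 and 30. Both early coccyx libraries detected 39 of the 42 members, and 97.8% of the 6859 genes. Scaled to equal totals, 26 members reached 10 counts in both early hypochord libraries and 5 in neither, shares not counted over the 6859 genes.

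**Figure D4:**
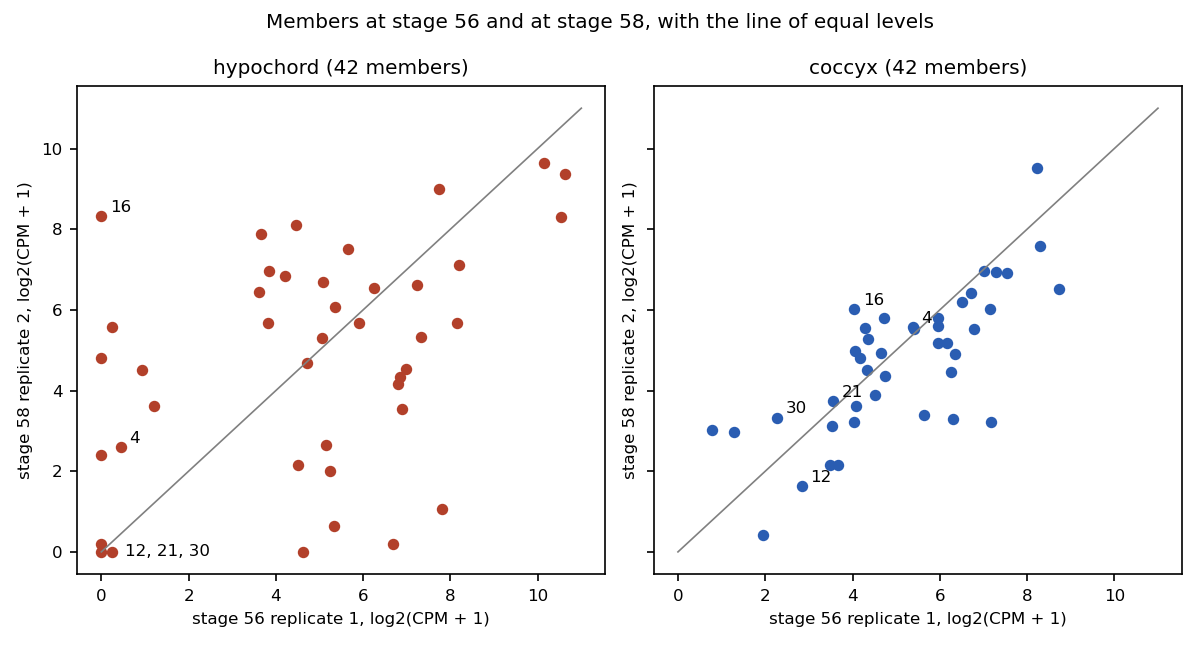
Level of the 42 members at stage 58 (vertical) against stage 56 (horizontal) in hypochord (left) and coccyx (right), as log2(CPM + 1), with the line of equal levels. Hypochord points scatter to both axes, with a median gap of 2.41, while coccyx points lie nearer the line, with a median gap of 0.92.

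Set against the later hypochord libraries, which the rule had chosen to be high, 9 members (21.4%) lay below all 4 of them in both early hypochord libraries. The share was 21.4% of the 6859 genes as well. One member, rank 32, lay above all 4 in both, against 7.71% of the 6859 genes. These counts are a description, since the later libraries took part in the choice.

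Between stages 61 and 65 no member passed the threshold in either tissue. These libraries took part in the choice, and requiring all 4 hypochord values above all 4 coccyx values limits how far a member can change between the stages, so nothing about the members is read from these counts of 0. In hypochord edgeR called 0 of 42 members and 0 of 11729 genes in each direction (0%), with 1 member and 493 genes at an unadjusted p under 0.05. DESeq2 called 75 genes and 0 members. The one member was rank 15, with 40.9 and 54.7 CPM at stage 65 and 102 and 93.4 CPM at stage 61 in hypochord. Its log2 fold change of stage 65 over stage 61 was -1.57 ± 0.64 (SE, edgeR, unadjusted p = 0.0313, adjusted p = 1.0). The members' fold changes ran from -2.40 in rank 2 to 1.14 in rank 5, with a median of -0.57, against -0.01 over all genes tested.

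In coccyx edgeR called 0 members and 0 genes (0%), and an unadjusted p under 0.05 was held by 0 members and 178 genes. DESeq2 called 43 genes and 0 members. Fold changes of stage 65 over stage 61 ran from -2.46 in rank 2 to 0.32 in rank 19, with a median of -0.34, against 0.06 over all genes tested. Rank 2 had the lowest value in both tissues. It had 16.8 and 9.38 CPM at stage 65 and 109 and 15.7 CPM at stage 61 in hypochord, and 3.13 and 0.299 CPM at stage 65 and 7.34 and 6.65 CPM at stage 61 in coccyx. The spread within stage 61 hypochord was wide beside the gap between the stages.

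By non-overlap of CPM, both stage 65 hypochord libraries lay above both stage 61 hypochord libraries in 5 members (11.9%), ranks 4, 5, 13, 33 and 40, against 28.6% of the 6859 genes. Both lay below in 4 members (9.52%), ranks 10, 15, 30 and 41, against 7.04%. In coccyx both stage 65 libraries lay above both stage 61 libraries in 14 members (33.3%), against 45% of the 6859 genes, and below in 3 (7.14%), against 3.47%. These shares are on the CPM scale. At stage 61 both replicate 2 libraries gave most of their counts to the rows set aside, as stated above. The replicate 1 libraries gave 42.8% in hypochord and 44.3% in coccyx. The part of this in the rises was not tested.

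The change of the tissue difference between stages 61 and 65 was fitted as an interaction. Since the rule asked for hypochord above coccyx at both stages, the members' values are a description. edgeR called 0 of 42 members and 0 of 11729 genes (0%), with 0 members and 163 genes at an unadjusted p under 0.05, and DESeq2 called 2 genes and 0 members. The interaction, the stage 65 tissue difference minus that of stage 61, ran from -1.83 in rank 15 to 1.30 in rank 4 with a median of -0.18, against -0.08 over all genes tested. In log2(CPM + 1), the difference of hypochord and coccyx was larger at stage 61 in 26 of 42 members, a share not counted over all genes. Its median was 0.90 at stage 65 and 1.05 at stage 61. A p above the threshold with 2 libraries per group does not show that the tissue difference was the same at both stages.

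**Figure D5:**
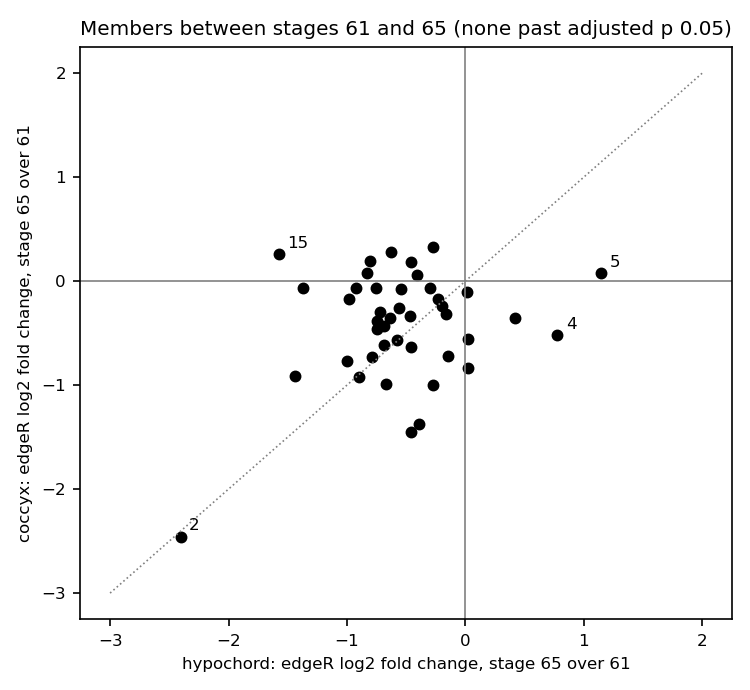
edgeR log2 fold change of stage 65 over stage 61 in coccyx (vertical) against hypochord (horizontal), with 1 point per member, lines at 0 and a dotted line of equal change. No member passed the adjusted threshold, rank 2 is lowest in both tissues (-2.40 in hypochord and -2.46 in coccyx), and rank 5 is highest in hypochord (1.14).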

How the data were processed

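Each deposited file holds one library's counts per gene, whole numbers that the authors did not normalize, per the file headers. Tools listed in the submitters' processing notes were HTSeq 0.13.5, cutadapt 1.8.1 and FastQC. For the aligner, genome build, annotation and strand setting nothing was given in these sources, so genes with overlapping neighbours or near-identical copies have uncertain counts. The labels' protocols describe laser capture of frozen tissue and amplified template-switching libraries without molecular identifiers. None of the 12 tables held values identical to another's.

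The members and lists were chosen with earlier results of these data known. The rule's steps and the counts of detection were computed with pandas 2.3.3 in Python 3.11.15. Tests across genes used edgeR 4.0.16 (R 4.3.3) with TMM scaling, filterByExpr by 6 groups of 2 libraries (stages 56 and 58 joined within a tissue), robust quasi-likelihood fits and Benjamini-Hochberg adjustment over all 11729 genes, a gene being called at 0.05. Residual degrees of freedom were 6. Standard errors are approximations from each fold change and its F value. The code was tested on simulated data with less scatter than these libraries had, so that test does not vouch for the calls given here. DESeq2 1.42.0, limma 3.58.1, other filters, groupings and blocks, and leaving out each library were the alternatives.

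The 6 tables of replicate 3 number their identifiers from 2 to 21459 in steps of 1. Over 11315 identifiers shared with the other tables, mean coccyx levels had a Spearman's rho of 0.00789, so these tables were not used further. Of the tables' identifiers, 0 stand in the RefSeq gene table of UCB_Xtro_10.0. By the naming rule, the 2 members of largest difference and the 2 of largest early fall are given by identifier.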

Additional observations from a re-analysis of the deposited data

Results flagged for a closer look

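In 6 members both early hypochord libraries lay below both early coccyx libraries, while at stages 61 and 65 every hypochord library lay above every coccyx library. The later direction was fixed by the choice of members, and the difference between early and later stages was not tested. The log2 fold changes of hypochord over coccyx at stages 56 and 58 were -3.43 for rank 4, -7.03 for rank 12, -2.54 for rank 17, -6.41 for rank 21, -5.62 for rank 30 and -2.81 for rank 40. Ranks 17 and 40 missed the threshold (edgeR adjusted p = 0.0791 and 0.177). In early hypochord these 6 genes ran from 0 to 11.3 CPM, and 35.9% of the 6859 genes lay below coccyx in the same way.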

How the results depend on the processing

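The replicate numbers are not stated to mark shared animals. Replicate deviations correlated between tissues with r = 0.345 at stage 61 and 0.194 at stage 65, and between stages with r = 0.0235 in hypochord and -0.12 in coccyx. The replicate block of early pairs called 182 genes and 0 members, while 8 separate groups called 5489 genes, 447 higher in hypochord, and 21 members, 9 of them higher. Leaving out a library gave 1363 to 4145 genes and 3 to 22 members. All 9 called members kept their direction under 19 alternatives. For stage 65 over 61, leaving out a library gave 0 genes in hypochord, 0 to 1 in coccyx, 0 for the interaction and 0 members. DESeq2 called 75, 43 and 2 genes, no filter called 9 in hypochord and 7 in coccyx, and the replicate number as a block called 1 in hypochord. Members stayed at 0 in these comparisons. The cause was not tested.

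Under the rule, leaving out a library gave 49 to 374 genes, and 15 to 42 members among the 150 or fewer then chosen. The 374 and the 15 both came without stage 61 replicate 2 hypochord, and leaving out any other library kept 41 or 42 members. TMM scaling gave 170, of which 150 were chosen, 21 of them members. Pseudocounts of 0.25 and 4 and no dropped rows kept all 42, a minimum of 4 CPM kept 42 of 50 and one of 16 CPM kept 36. With fewer than 150 genes meeting the rule, the pseudocounts, the kept rows and the lower minimum could not lose a member. At equal totals 5 members were detected in neither early hypochord library, a share not counted over all genes. A TMM scaling chosen after seeing the data put 9 members above (21.4%) and 6 below (14.3%) coccyx at stages 56 and 58, against 12.1% and 29.8% of the 6859 genes.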

Other observations

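In coccyx a larger share of the members than of the 6859 genes lay outside the range of the 4 later libraries, at stage 56 and at stage 58. Stage 56 coccyx lay above all 4 later coccyx libraries in 18 of 42 members (42.9%), against 32.0% of the 6859 genes, and below all 4 in 10 (23.8%), against 18.9%. Stage 58 coccyx lay below all 4 in 18 members (42.9%), against 15.6% of the 6859 genes, and above all 4 in 10 (23.8%), against 19.2%. The later coccyx libraries took part in the choice of members, and each early stage had 1 coccyx library here, so these counts are a description. The part of the members' closer replicates in later coccyx in these counts was not tested.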
